A study of Mus musculus with 6 samples.

Results

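The 9 genes described here encode enzymes that build and break down glycogen, together with regulatory subunits that bring protein phosphatase 1 (PP1) to it. They are *Ppp1r3b*, *Ppp1r3c* and *Ppp1r3d* (PP1 glycogen-targeting subunits), *Ugp2*, *Gyg*, *Gys1* and *Gbe1* (synthesis), and *Pygb* and *Pygm* (breakdown). All 9 were found by symbol among the 13809 genes of the count table, and all 9 passed the filter on low counts. They were chosen by function, with their KO against WT changes from earlier work on these counts in view, *Ppp1r3b* among the leading ones. Their KO against WT values are therefore given as a description, with no p-value. The other pathway genes and the cell type markers were also listed with earlier results of these data known. Their adjusted p-values below describe the fit and are no independent evidence.

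RNA was sequenced from hearts at embryonic day (E) 18.5, in 3 libraries from WT and 3 from *Pkm1*-KO embryos. The libraries of a genotype are described as biological replicates. The KO embryos carry a homozygous germline deletion in the *Pkm1*-specific exon of *Pkm*, made with Cas9 in zygotes of BDF1 mice, so *Pkm1* is missing from every cell type and not from cardiomyocytes alone. The tissue is heart per the labels and ventricle per the text of the paper. The columns carry no replicate numbers, so the letters a, b and c were given in column order within each genotype.

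Library totals ranged from 15567624 to 19875546 counts, and all levels below are CPM, reads scaled to library size by TMM. *Pkm*, the targeted gene, had 1318 ± 41.1 CPM in WT hearts against 542 ± 10.1 CPM in KO hearts (SD over n = 3 per genotype). These counts do not separate the *Pkm1* and *Pkm2* transcripts of the gene. The paper's discussion also reports lower PKM2 in this model and says that the phenotype may involve it. Mean *Xist* was 5.26 CPM for WT against 2285 CPM for KO, and no KO library had a count (0) of the Y genes *Ddx3y*, *Eif2s3y*, *Kdm5d* or *Uty*, which all WT libraries held. The groups therefore differ in sex-linked transcripts in all libraries, and sex and genotype cannot be told apart for any gene below. WT c stood further from WT a and WT b (chi-square per degree of freedom 3.75 and 3.23) than these did from each other (1.56), while the KO pairs lay between 1.62 and 1.88. The 8 cardiomyocyte markers were all detected, and by edgeR 6 were lower and 2 higher in KO hearts. Their summed level was 58590 to 62060 CPM in WT and 54399 to 55154 CPM in KO. *Myh6* had the largest change of the 8 (log2 fold change -0.46, adjusted p = 3.85e-16, edgeR), from a mean of 13979 to 10191 CPM. The 2 higher markers were *Actc1* (log2 fold change 0.06) and *Myh7* (0.05), and the WT and KO libraries of *Myh7* overlapped. Over all tested genes, 14.6% were called higher and 15.7% lower at an adjusted p under 0.05 (edgeR).

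Glycogen is the store of glucose in muscle and liver, and the fetal heart holds much of it. UDP-glucose made by *Ugp2* is the building block, glycogenin (*Gyg*) starts the chain, glycogen synthase (*Gys1* in muscle) lengthens it and the branching enzyme (*Gbe1*) adds branches. Phosphorylase (*Pygm* in muscle, *Pygb* in brain and heart) releases glucose 1-phosphate from the chain ends. PP1 dephosphorylates both enzymes, which activates the synthase and inactivates the phosphorylase, and the PPP1R3 subunits hold PP1 on the glycogen particle.

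Promoter windows from RefSeq (GRCm38.p6, 250 bases before to 50 after the annotated start) were found for 8 of the 9 genes and not for *Ppp1r3b*. Those of *Ppp1r3c*, *Gys1* and *Pygb* are shown because these genes had the largest KO to WT differences after *Ppp1r3b*. The *Ppp1r3c* window lies on the minus strand at chr19:36736555-36736854, that of *Gys1* on the plus strand at chr7:45434589-45434888, and that of *Pygb* on the plus strand at chr2:150786546-150786845. Capitals mark matches, on either strand, to the CCAAT box (CCAAT, the element that NFY binds), the E-box CACGTG and the GC box (GGGCGG).
Ppp1r3c: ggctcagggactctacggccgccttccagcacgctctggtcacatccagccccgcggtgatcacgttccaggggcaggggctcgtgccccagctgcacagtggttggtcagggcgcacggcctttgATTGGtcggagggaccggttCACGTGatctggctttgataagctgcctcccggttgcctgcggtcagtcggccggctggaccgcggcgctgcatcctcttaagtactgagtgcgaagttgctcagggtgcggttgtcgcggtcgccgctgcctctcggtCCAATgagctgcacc
Gys1: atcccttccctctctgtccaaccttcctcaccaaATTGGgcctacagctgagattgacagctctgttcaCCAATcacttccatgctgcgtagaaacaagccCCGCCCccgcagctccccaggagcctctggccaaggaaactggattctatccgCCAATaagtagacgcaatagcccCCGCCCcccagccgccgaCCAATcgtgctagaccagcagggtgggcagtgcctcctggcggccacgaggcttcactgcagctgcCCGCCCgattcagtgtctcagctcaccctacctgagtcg
Pygb: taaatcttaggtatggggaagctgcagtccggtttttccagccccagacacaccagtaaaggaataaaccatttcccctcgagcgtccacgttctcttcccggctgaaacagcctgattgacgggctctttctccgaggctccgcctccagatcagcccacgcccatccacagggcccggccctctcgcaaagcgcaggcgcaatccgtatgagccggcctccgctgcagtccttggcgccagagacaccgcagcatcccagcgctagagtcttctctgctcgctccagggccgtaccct

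The *Gys1* window held 4 CCAAT matches and 3 GC boxes, and the *Ppp1r3c* window held 2 CCAAT matches and 1 E-box. The windows of *Pygb* and *Pygm* held none of these elements. Among all 8 genes with a window, CCAAT occurred in 3 (*Ppp1r3c*, *Gys1* and *Ugp2*), CACGTG in 3 (*Ppp1r3c*, *Ppp1r3d* and *Gyg*), GGGCGG in 5 and the TATA box (TATAAA) in 0. Of the 13154 RefSeq windows of genes in the count table, 37.1% held CCAAT, 9.72% held CACGTG, 61.0% held GGGCGG and 7.4% held TATAAA. Over all 32851 windows of the RefSeq table these shares were 37.4%, 7.15%, 35.7% and 13.6%. None of these motifs contains another. The matches describe letters in a window and not binding.

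In KO hearts the PP1-targeting subunits *Ppp1r3b* and *Ppp1r3c* and the synthase *Gys1* were higher, and the phosphorylase *Pygb* was lower. For *Ugp2*, *Gbe1* and *Pygm* the KO and WT libraries overlapped. Of the 9 genes, 3 were called higher and 1 lower at an adjusted p under 0.05 in edgeR's quasi-likelihood fit over all genes, where 14.6% of the 13804 tested genes were called higher, 15.7% lower and 30.3% in either direction. The groups did not overlap for 5 of the 9 genes, against 42.4% of all tested genes. The median log2 fold change was 0.08 over the 9 genes (0.04 without WT c) and 0.00 (0.00172) over all tested genes. Because the KO against WT changes were in view when the genes were chosen, nothing is read from these shares.

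**Figure D1:**
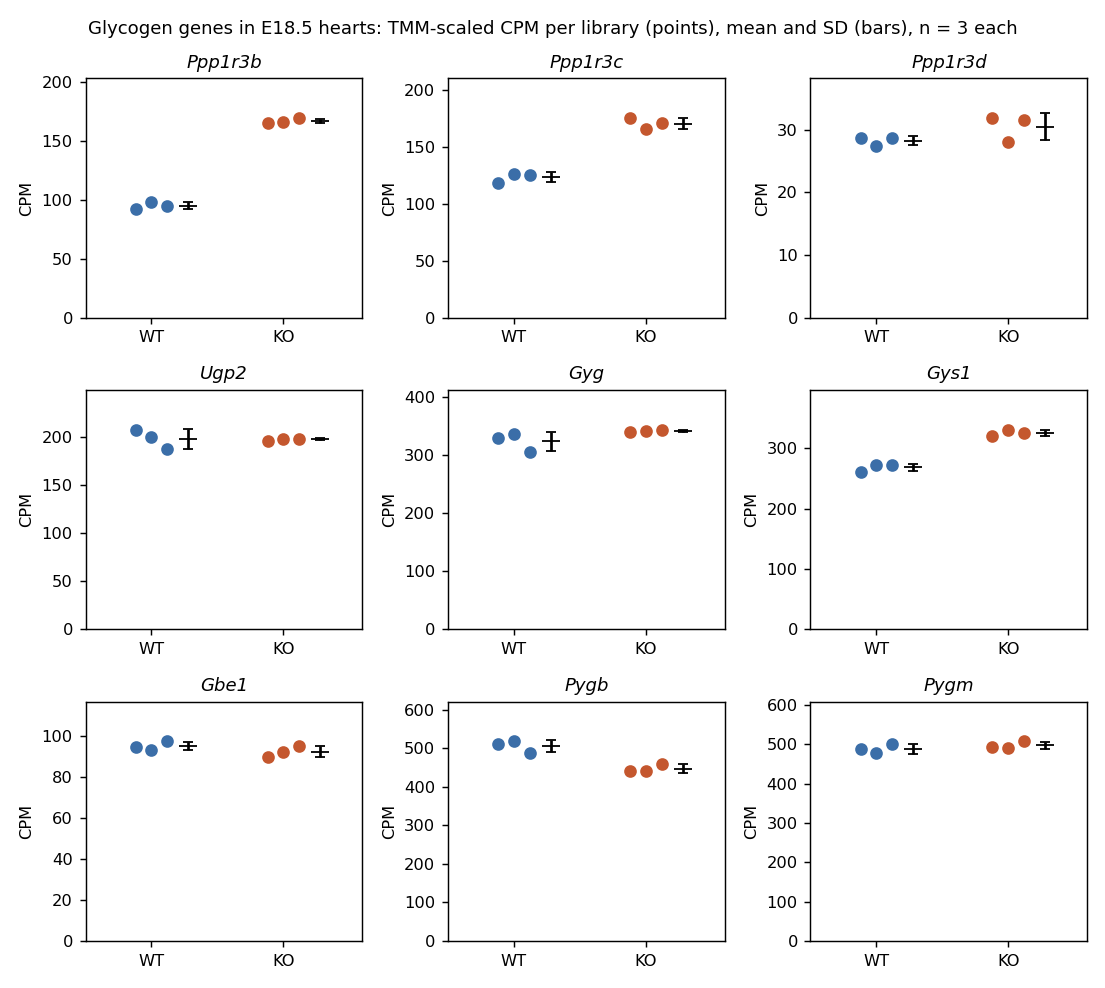
TMM-scaled CPM (vertical axes, each starting at 0) of the 9 genes in the 3 WT (blue) and 3 KO (orange) libraries, with the mean and SD as black bars. The KO points of *Ppp1r3b*, *Ppp1r3c*, *Gys1* and *Gyg* lie above all WT points and those of *Pygb* below, while the points of *Ppp1r3d*, *Ugp2*, *Gbe1* and *Pygm* overlap.

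*Ppp1r3b* encodes the targeting subunit best known from liver, and lies on chromosome 8 from 35375739 to 35388139 (plus strand, GRCm38). Its level was 92.4, 98.0 and 94.9 CPM in WT a, b and c and 165, 166 and 169 CPM in KO a, b and c. Every KO library was far above every WT library, and the spread within each genotype was small. The means were 95.1 ± 2.78 and 167 ± 2.04 CPM (SD over n = 3 per genotype), a ratio of 1.75 and a log2 fold change of 0.81 with a standard error (SE) of 0.0379. The size of this log2 fold change exceeded that of 96.2% of the tested genes, and it was the only change of at least 1.5-fold among the 9 genes. Over all 13804 tested genes, 855 had a called change of at least 1.5-fold.

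*Ppp1r3c*, on chromosome 19 from 36731731 to 36736653 (minus strand), encodes the subunit known as protein targeting to glycogen. It was at 119, 126 and 126 CPM in WT a, b and c and at 175, 166 and 171 CPM in KO a, b and c. The groups were apart in all libraries. The log2 fold change was 0.47 (SE 0.0378), with means of 124 ± 4.09 and 171 ± 4.74 CPM (SD over n = 3 per genotype). Its size exceeded that of 89.1% of the tested genes.

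*Ppp1r3d*, a further subunit of the family, is on chromosome 2 from 178411206 to 178414472. Its level was 28.7, 27.4 and 28.6 CPM in WT a, b and c, lower than those of *Ppp1r3b* and *Ppp1r3c*, and 31.8, 27.98 and 31.6 CPM in KO a, b and c. KO b lay among the WT libraries, so the groups overlapped. Its log2 fold change of 0.11 (SE 0.0662) was not called.

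The remaining subunits were taken from a list of 4, which did not include the 3 genes above. *Ppp1r3a*, the main striated muscle subunit, fell. It was at 135, 145 and 128 CPM in WT a, b and c and at 83.0, 93.2 and 83.1 CPM in KO a, b and c, with no overlap. The log2 difference was -0.66 with an SE of 0.0487 (adjusted p = 3.69e-11, quasi-likelihood test of edgeR, adjusted by Benjamini-Hochberg over every tested gene). *Ppp1r3f* (log2 fold change 0.54, adjusted p = 0.0172) and *Ppp1r3g* (0.46, adjusted p = 0.0230) rose from means of 3.62 and 3.87 CPM in WT, and *Ppp1r3e* had a log2 fold change of 0.28 (adjusted p = 0.165), all by edgeR's test. The call of *Ppp1r3f* was lost without KO a, where its log2 fold change was 0.35 (adjusted p = 0.173), and without WT a (adjusted p = 0.0745, edgeR). That of *Ppp1r3g* was lost without WT a, WT c, KO a or KO b, with adjusted p-values of 0.0536 to 0.0907 (edgeR). *Ppp1r3f* is X-linked, and 46.9% of its exon bases also lie in exons of *Gm36995* on the same strand, so its reads are uncertain.

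Levels of different genes were compared per kilobase of annotated exon. As shares of the reads per kilobase of the 7 targeting subunits, *Ppp1r3a* made up 21.5%, 21.8% and 19.9% in WT a, b and c and 10.1%, 11.7% and 10.3% in KO a, b and c. *Ppp1r3b* made up 16.5%, 16.5% and 16.6% in WT a, b and c and 22.5%, 23.4% and 23.4% in KO a, b and c. *Ppp1r3c* was the most abundant subunit in every library, with 49.0% ± 0.998 in WT and 53.9% ± 0.681 in KO hearts (SD over n = 3 per genotype). With this length *Ppp1r3a* was above *Ppp1r3b* in all WT libraries and below it in all KO libraries. The WT order depends on the length: with the longest transcript, an alternative chosen after seeing the data, *Ppp1r3a* made up 18.5% to 20.2% and *Ppp1r3b* 21.7% to 21.8% in WT, and 9.17% to 10.6% and 29.0% to 29.98% in KO hearts. The count of *Ppp1r3b* over that of *Ppp1r3a*, which needs no scaling between libraries, went from 0.676 to 0.744 in WT to between 1.78 and 2.03 in KO. The summed level of the 7 subunits was 92.6 ± 2.70 CPM per kb in WT and 116 ± 1.76 CPM per kb in KO hearts (SD over n = 3 per genotype).

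**Figure D2:**
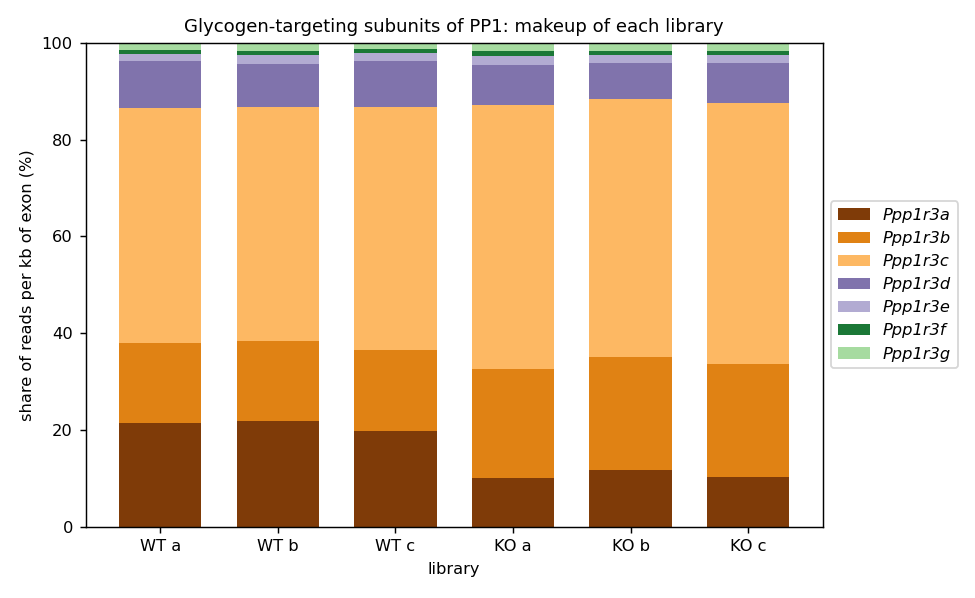
Share (vertical axis, percent of reads per kb of exon) of each of the 7 PP1 glycogen-targeting subunits in each library (horizontal axis). The *Ppp1r3a* segment is 19.9% to 21.8% in WT and 10.1% to 11.7% in KO libraries, and the *Ppp1r3b* segment is 16.5% to 16.6% and 22.5% to 23.4%.

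The PP1 catalytic subunits, to which these proteins bind, did not pass the test. *Ppp1ca*, *Ppp1cb* and *Ppp1cc* each had a log2 fold change of -0.07, with adjusted p-values of 0.138, 0.253 and 0.191 (edgeR's quasi-likelihood test). *Ppp1cb* rests on WT c, which at 355 CPM lay below both other WT libraries (431 and 430.5 CPM); without WT c its log2 fold change was -0.16 (adjusted p = 4.35e-07, edgeR).

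Among the synthesis enzymes, *Gys1* was the one with a clear difference. The gene lies on chromosome 7 from 45434844 to 45456619 (plus strand). It was at 261, 272 and 272 CPM in WT a, b and c and at 320, 331 and 325 CPM in KO a, b and c. The lowest KO library was above the highest WT library. The means were 268 ± 6.20 and 325 ± 5.30 CPM (SD over n = 3 per genotype), a log2 fold change of 0.28 (SE 0.0309). Of the *Gys1* exon bases, 6.47% overlap exons of *Ruvbl2* on the opposite strand, and whether the authors' counting used strand is not given in the sources used here.

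*Gyg*, on chromosome 3 from 20122084 to 20155317, was at 330, 337 and 306 CPM in WT a, b and c and at 341, 342 and 344 CPM in KO a, b and c. All KO libraries were above all WT libraries, and the gap between 337 and 341 CPM was smaller than the WT spread (SD 16.4 CPM). Its log2 fold change of 0.08 (SE 0.0332) was not called with all libraries. It was 0.10 and called without WT b, and 0.04 and not called without WT c, the WT library that stood apart. *Ugp2*, on chromosome 11, ranged from 187 to 207 CPM in WT and from 196 to 198 CPM in KO hearts, with a log2 fold change of -0.00459 (SE 0.0365). *Gbe1*, on chromosome 16, ranged from 93.5 to 97.4 CPM in WT and from 89.6 to 95.3 CPM in KO, with a log2 fold change of -0.04 (SE 0.0419). *Gys1* and *Gbe1* act on the same chain and differed in their change. The count of *Gys1* over that of *Gbe1* was 2.76, 2.91 and 2.79 in WT a, b and c and 3.57, 3.57 and 3.41 in KO a, b and c.

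Other synthesis enzymes and phosphoglucomutases were taken from a list of 6, of which 5 were tested. *Gys2*, the liver synthase, was not analysed here. Phosphoglucomutases interconvert glucose 6-phosphate and glucose 1-phosphate. Which of the listed genes carry out this step in the heart was not tested. *Pgm2* rose from 241 ± 7.98 to 275 ± 4.04 CPM (SD over n = 3 per genotype), a log2 fold change of 0.19 (adjusted p = 5.53e-05, edgeR's quasi-likelihood test), and *Pgm2l1* rose by 0.27 on the log2 scale (adjusted p = 0.0202, edgeR). *Pgm1* fell from 22.8 ± 0.267 to 18.4 ± 0.806 CPM (SD over n = 3 per genotype), a log2 fold change of -0.31 (adjusted p = 0.00211, edgeR), and *Pgm5*, a relative without known enzyme activity found at cell contacts in muscle, fell by 0.12 (adjusted p = 0.0115, edgeR). *Pgm3*, which acts on N-acetylglucosamine phosphate, had a log2 fold change of -0.19 (adjusted p = 0.102, edgeR). The call of *Pgm2l1* was lost without WT b, KO a or KO b (adjusted p = 0.117, 0.0607 and 0.138, edgeR) and that of *Pgm5* without KO c (0.0646). RefSeq lists *Pgm1* and *Pgm2* each as a synonym of the other, so which locus each of these rows counts is uncertain.

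*Pygb* and *Pygm*, the brain and muscle forms of phosphorylase, were close to each other in CPM and differed in their change. *Pygb*, on chromosome 2 from 150786735 to 150831758 (plus strand), was at 510, 518 and 489 CPM in WT a, b and c and at 441, 441 and 460 CPM in KO a, b and c. All KO libraries were below all WT libraries. The means were 506 ± 15.04 and 447 ± 11.2 CPM (SD over n = 3 per genotype), a ratio of 0.884 and a log2 fold change of -0.18 (SE 0.0296). *Pygm*, on chromosome 19 from 6384399 to 6398459 (plus strand), ranged from 477 to 501 CPM in WT and from 490 to 507 CPM in KO hearts. These ranges overlapped, and its log2 fold change was 0.03 (SE 0.0283). Counts of *Pygm* over counts of *Pygb* in the same library were 0.953, 0.920 and 1.02 in WT a, b and c and 1.12, 1.11 and 1.10 in KO a, b and c. The ratio was thus higher in every KO library than in any WT library. The genes are related, yet only 0.273% of the 50-base words of *Pygb* transcripts and 0.405% of those of *Pygm* occur in transcripts of another gene.

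The ratio of *Gys1* counts to *Pygb* counts was 0.512, 0.525 and 0.556 in WT a, b and c and 0.726, 0.750 and 0.707 in KO a, b and c. Against *Pygm*, the *Gys1* ratio ran from 0.537 to 0.570 in WT and from 0.642 to 0.675 in KO hearts. Both ratios were higher in all KO libraries. These ratios, and those of *Ppp1r3b* over *Ppp1r3a*, *Gys1* over *Gbe1* and *Pygm* over *Pygb*, restate the levels given above. They are no separate support.

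Per kilobase of exon, the order of the 9 genes in WT hearts was *Pygm* (152 ± 3.73 CPM per kb), *Gyg* (138 ± 6.98), *Pygb* (105 ± 3.13), *Ugp2* (64.5 ± 3.30), *Gys1* (56.0 ± 1.30), *Ppp1r3c* (45.4 ± 1.503), *Gbe1* (17.8 ± 0.381), *Ppp1r3b* (15.3 ± 0.447) and *Ppp1r3d* (8.64 ± 0.221), each with the SD over 3 libraries. In KO hearts *Gys1* (67.9 ± 1.11 CPM per kb) lay above *Ugp2* (64.4 ± 0.361) and *Ppp1r3b* (26.8 ± 0.329) above *Gbe1* (17.3 ± 0.534), with the other places as in WT. With exon length no neighbours in the order overlapped in WT. In KO hearts *Ugp2* (63.9 to 64.6 CPM per kb) and *Ppp1r3c* (60.9 to 64.4 CPM per kb) overlapped, and no other neighbours did. With the longest transcript as the length, the order of the WT means was the same, but the libraries of neighbours overlapped. *Gyg* was then above *Pygm* in WT a (172 against 169 CPM per kb) and WT b (175 against 166) and below it in WT c (159 against 174), and *Ugp2* was below *Gys1* in WT c (69.8 against 73.9). In KO hearts that length put *Gyg* (178 CPM per kb) above *Pygm* (173 CPM per kb).

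**Figure D3:**
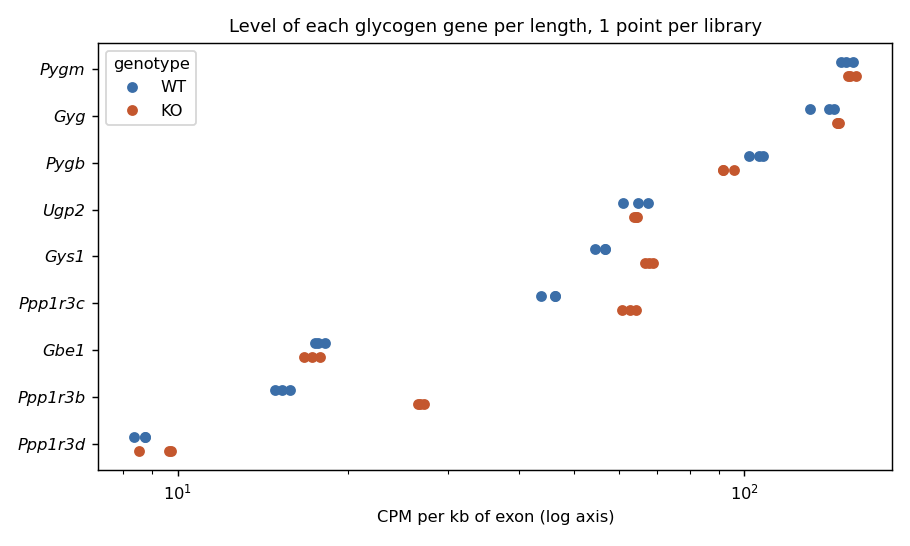
CPM per kb of exon (horizontal log axis) of the 9 genes, 1 point per library, WT in blue and KO in orange, ordered by the WT mean. The phosphorylases and *Gyg* lie above 91 CPM per kb in every library, *Ppp1r3d* lies below 10, and the *Ppp1r3b* points move from about 15 in WT to about 27 in KO hearts.

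Of the list of other breakdown enzymes, 2 are given here. *Gaa*, the lysosomal glucosidase, rose from 91.0 ± 0.579 to 102 ± 4.65 CPM (SD over n = 3 per genotype), a log2 fold change of 0.16 (adjusted p = 0.00457, edgeR's quasi-likelihood test; 0.0536 without KO c). The liver phosphorylase *Pygl* had a log2 fold change of 0.01 (adjusted p = 0.943, edgeR). Of the 5 phosphorylase kinase subunits, which activate phosphorylase by phosphorylation, 1 fell and 4 did not pass. *Phka1*, the muscle regulatory subunit, went from 70.5 ± 2.33 to 58.1 ± 0.675 CPM (SD over n = 3 per genotype), a log2 fold change of -0.28 (adjusted p = 6.14e-05, edgeR). The log2 fold changes of *Phka2*, *Phkb*, *Phkg1* and *Phkg2* were between -0.12 and 0.06. *Phka2* passed without WT c (log2 fold change -0.10, adjusted p = 0.0455, edgeR). *Phka1* and *Phka2* are X-linked. Of the synthase kinases, *Gsk3b* fell from 235 ± 2.40 to 211 ± 0.719 CPM (SD over n = 3 per genotype), a log2 fold change of -0.16 (adjusted p = 3.52e-04, edgeR), and *Gsk3a* had one of -0.13 (adjusted p = 0.107, edgeR; 0.0276 without WT b).

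The largest change among the listed pathway genes was in *Stbd1*, which binds glycogen and tethers it to membranes. *Stbd1* was at 108, 107 and 111 CPM in WT a, b and c and at 51.7, 52.0 and 52.9 CPM in KO a, b and c. Its libraries were tightly grouped within each genotype and far apart between them. The log2 fold change was -1.06 (SE 0.0439; adjusted p = 1.23e-16 by edgeR), and it stayed between -1.07 and -1.05 in all 12 alternatives. Its partners in the list of glycogen quality control, *Epm2a* (laforin) and *Nhlrc1* (malin), were at 4.14 and 3.28 CPM in WT and had log2 fold changes of 0.20 (adjusted p = 0.362) and 0.17 (adjusted p = 0.515, both by edgeR).

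In the galactose route, which also feeds UDP-glucose, *Galk1* (log2 fold change 0.26, adjusted p = 0.00278) and *Galt* (0.23, adjusted p = 0.00610) rose by edgeR's test, while *Ugdh* (-0.05), which draws on UDP-glucose for glucuronate, did not pass. *Galt* was not called without WT b (adjusted p = 0.0678, edgeR). Over the 8 lists, 27 of the 28 genes reported here were tested, 7 rose (4 with DESeq2 and 4 without KO a), 6 fell and 14 did not pass, with a median log2 fold change of -0.06. The share of called genes was 14.6% for higher and 15.7% for lower genes in the whole table, as above.

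**Figure D4:**
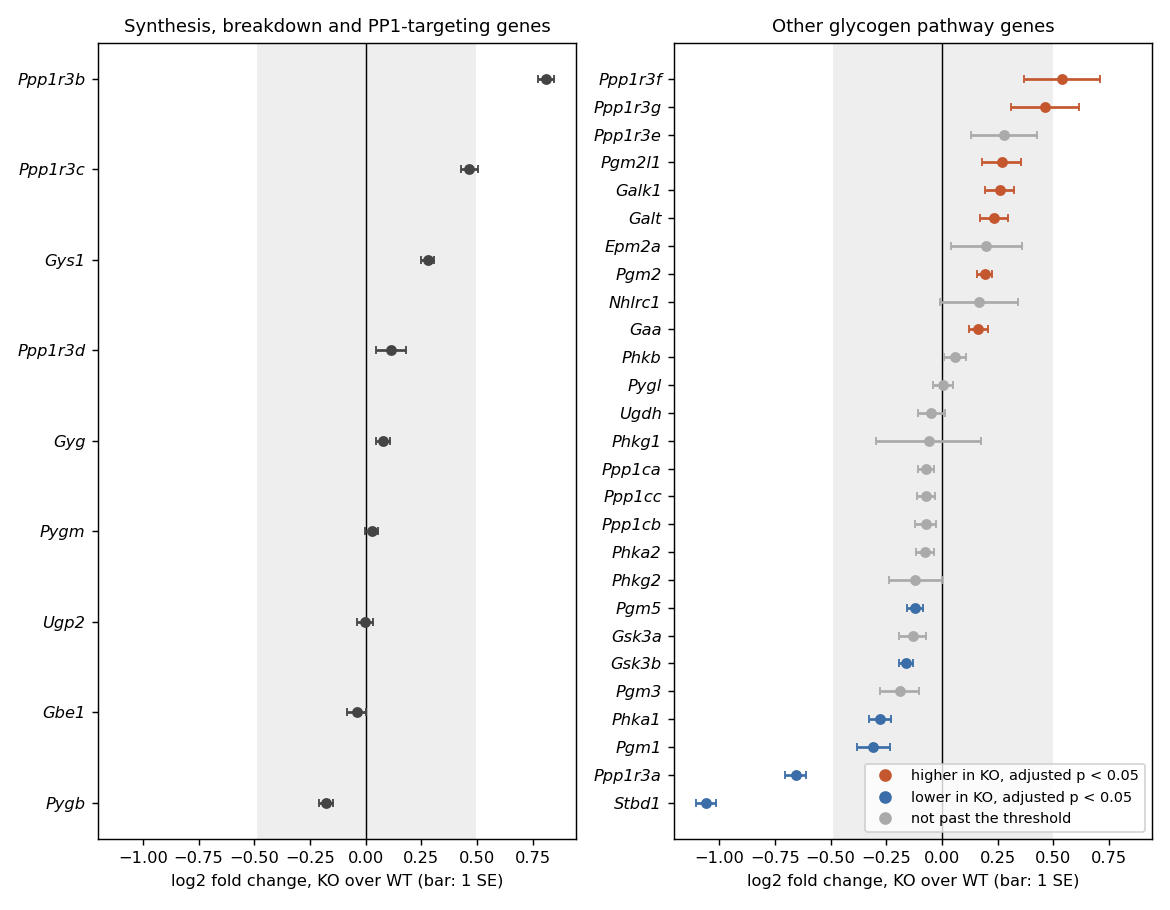
Log2 fold change of KO over WT (horizontal axis, bars of 1 standard error) for the 9 genes (left) and 27 other glycogen pathway genes (right, orange for higher and blue for lower at an adjusted p under 0.05, grey for not past the threshold). The grey band holds the middle of all 13804 tested genes, from the 5th percentile (-0.48) to the 95th (0.49); *Ppp1r3b*, *Ppp1r3f*, *Ppp1r3a* and *Stbd1* lie outside it.

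Markers of several cell types moved with genotype, where 14.6% of all tested genes were called higher and 15.7% lower. The summed level of 6 atrial markers was 595 to 601 CPM in WT and 1006 to 1030 CPM in KO hearts, with 3 of them higher past the threshold and the seventh, *Sln*, not analysed here. Most of the sum came from the 3 higher ones, *Nppa* (mean 372 CPM in WT, 597 in KO), *Myl4* (142 and 305) and *Myl7* (46.3 and 77.7). *Nr2f1* (log2 fold change -0.23), *Nr2f2* (0.06) and *Stard10* (-0.09) were not called. The 4 analysed hepatocyte markers of 7 summed to 27.1 to 32.9 CPM in WT and 12.02 to 12.3 CPM in KO, and all 4 were lower. The 5 epicardial markers summed to 70.8 to 73.2 CPM in WT and 86.9 to 92.5 CPM in KO, with 3 higher. The 7 fibroblast markers (3915 to 3958 CPM in WT, 3647 to 3720 CPM in KO, 3 lower) and the 6 endothelial markers (1066 to 1071 and 993 to 1008 CPM, 3 lower) summed to less in KO. The lower fibroblast markers were *Postn* (mean 700 CPM in WT, 561 in KO), *Col3a1* and *Dcn*, while *Col1a1*, *Col1a2*, *Pdgfra* and *Tcf21* were not called. The lower endothelial markers were *Cdh5* (344 and 295 CPM), *Pecam1* and *Tie1*. *Kdr* (301 and 313 CPM) was above WT in every KO library and not called, and *Tek* and *Emcn* were not called. Summed levels overlapped for the 6 immune markers (37.4 to 40.8 and 35.0 to 42.3 CPM, 1 lower) and for the single analysed neural marker of 5 (4.13 to 5.39 and 4.56 to 5.68 CPM), and those of the 3 analysed erythroid markers of 7 were 33.5 to 35.5 and 35.8 to 43.0 CPM, with *Alas2* higher and *Slc4a1* lower. The 4 analysed skeletal muscle markers of 9 summed to 4.86 to 6.70 CPM in WT and 7.03 to 8.27 CPM in KO, where *Myh8* was higher and *Myh3* lower past the threshold. No analysed marker was at 0 over the 6 libraries. The part of these cell types in the levels of *Ppp1r3a*, *Ppp1r3b*, *Ppp1r3c*, *Gys1*, *Pygb* and *Stbd1* was not tested, and in bulk tissue fewer cells of a type cannot be told apart from less RNA per cell.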

How the data were processed

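Total RNA of E18.5 hearts (3 WT, 3 KO) was depleted of ribosomal RNA and sequenced as paired ends. Per the labels, cutadapt 1.18, HISAT2 and StringTie were used with mm10. Unnormalised read counts of 13809 gene symbols were deposited as a single table; the counting program and its filter are not given in the sources used here. The columns of the authors' edgeR comparison (log2 fold change, average log2 CPM, p-value, FDR) were not used.

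The fit used edgeR 4.0.16 under R 4.3.3: filterByExpr (13804 genes kept, 5 left out), TMM, quasi-likelihood F-test of genotype without covariates, Benjamini-Hochberg adjustment over all genes, threshold 0.05. The floor of detection, 3 counts, was 0.151 to 0.193 CPM and covers counting error only. The test was checked on simulated data with 200 changed genes. It recovered 85% of 1.5-fold changes (4 false calls) and 61.5% of 1.25-fold changes (10 false calls), so smaller changes can be missed. The deposited counts gave 4179 called genes of 13804 and held a WT library (WT c) that stood apart. The simulated data had neither feature, so these rates need not hold for the fit. Positions and exon lengths are from GENCODE M21 (GRCm38), promoters from RefSeq. Figures used matplotlib 3.10.9.

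The members, the pathway and marker lists and the alternatives (RLE, TMM without *Rn45s*, DESeq2 1.42.0, no filter, X and Y genes left out, each library left out, WT a and WT b summed) were chosen with earlier results of these data known. Genes named are the 9 members, the listed pathway and marker genes, *Pkm* and the sex-linked checks; 2 genes of the pathway lists are not reported here and were left out of the list counts.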

Additional observations from a re-analysis of the deposited data

How the results depend on the processing

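No paired analysis was possible because replicate numbers are absent from the column names. Across the 12 alternative fits, 3 of the 9 genes were called higher and 1 lower in each, except that *Gyg* was also called higher without WT b (log2 fold change 0.10). In the whole table these fits called 1362 to 2013 genes higher and 1639 to 2306 lower, and nothing is read from the member counts. The log2 fold changes ran from 0.79 to 0.83 for *Ppp1r3b*, 0.44 to 0.49 for *Ppp1r3c*, 0.26 to 0.29 for *Gys1* and -0.20 to -0.16 for *Pygb*. *Ugp2* (-0.0431 to 0.0280 with 1 library left out) reversed to 0.0280 without WT a, to 0.000223 without KO a and to 0.0105 with WT a and WT b summed.

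Of the other pathway genes, 4 rather than 7 were called higher with DESeq2, which did not call *Ppp1r3f*, *Ppp1r3g* and *Pgm2l1* (adjusted p = 0.0558, 0.0767 and 0.0591). With each library left out, 4 (without KO a) to 6 were called higher and 5 to 8 lower. In the whole table the fits with a library left out called 1479 to 2013 genes higher and 1704 to 2306 lower. Without KO c, *Gaa* and *Pgm5* were not called (adjusted p = 0.0536 and 0.0646, edgeR), and *Galt* was not called without WT b (0.0678). Uncalled genes changed direction with 1 library left out: *Pygl* (-0.0235 to 0.0360) to -0.0235 without WT b and -0.0184 without KO a, and *Phkg1* (-0.139 to 0.0757) to 0.0220 without WT b and 0.0757 without KO c. The cause was not tested. With DESeq2, 1362 genes were higher and 1639 lower in the whole table, against 2011 and 2168. Leaving out X and Y genes removed *Ppp1r3f*, *Phka1* and *Phka2* and changed no other call. With the longest transcript as the length, the mean share of *Ppp1r3b* among the targeting subunits was 21.8% rather than 16.5% in WT and 29.6% rather than 23.1% in KO hearts.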
